A study of Mus musculus with 12 samples.

Results

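RNA-Seq counts of 9 genes of retinoic acid metabolism and response were examined in mouse epiblast-like cells (EpiLCs) with and without functional KDM5C. The genes were chosen by name for their known roles, and all 9 are among the 22911 genes that the tables list. They are *Aldh1a2*, *Dhrs3*, *Cyp26a1*, *Stra6*, *Crabp1*, *Crabp2*, *Rara*, *Rarb* and *Rarg*. EpiLCs are cells of the early epiblast type that form within 48 h when embryonic stem cells (ESCs) are moved from medium that holds them in the naive state to FGF2 and Activin A on fibronectin. There were 4 genotypes, with 3 libraries each. The female cells were controls, *Kdm5c* fl/fl, and mutants, *Kdm5c* Δ/Δ, and the male cells were controls, *Kdm5c* flY, and mutants, *Kdm5c* ΔY (fl/fl, Δ/Δ, flY and ΔY for short). *Kdm5c* (also called *Smcx*) is an X-linked gene for a demethylase of histone H3 lysine 4. The controls carry the floxed allele, so loxP sites are shared by all genotypes up to the deletion, and the Δ allele lacks a pair of exons of the catalytic JmjC domain. The labels call the strain C57BL/6J, whereas the methods describe a floxed strain of mixed background, and ESCs were derived from blastocysts on fibroblast feeders. Before the move to FGF2 and Activin A, the methods describe passages of the ESCs on gelatin-coated dishes. According to the labels, 3 independent ESC lines were differentiated per genotype, but the tables hold genotype means, from which the reads of single libraries were solved, and these libraries cannot be tied to single lines. They are called A, B and C within each genotype. The p-values measure the spread between these libraries, which with 1 line per library would include that between lines.

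Retinoic acid is made from vitamin A (retinol) in a pair of oxidation steps, the first to retinal and the second, by aldehyde dehydrogenases such as ALDH1A2, to retinoic acid. DHRS3 turns retinal back into retinol, CYP26A1 oxidizes retinoic acid for removal, STRA6 carries retinol across the cell membrane and CRABP1 and CRABP2 bind retinoic acid in the cytoplasm. The receptors RARA, RARB and RARG bind DNA as partners of RXR proteins, often at a direct repeat of a hexamer, and turn genes on when retinoic acid is bound. *Cyp26a1*, *Dhrs3*, *Rarb* and *Stra6* are themselves known to be induced by retinoic acid. In the early embryo, retinoic acid is known for patterning the hindbrain and trunk through *Hox* genes, and CYP26 enzymes keep it low in the epiblast.

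The promoters of *Rarb* and *Cyp26a1* are shown because among the members they alone held the direct repeat that RAR and RXR are best known to bind. Windows from 250 bases before to 50 bases after each RefSeq start (GRCm38.p6) were searched on both strands for any of a set of hexamers (AGGTCA, the best known, then AGTTCA as a variant, likewise GGGTCA, and lastly GGTTCA), followed by any of them in the same direction after a spacer of 5 bases. Windows were at hand for 8 of the 9 members, *Crabp2* being the exception, and every one of them matched mm9 exactly once. Of 32851 different windows of all genes, 32 (0.0974%) held such a repeat. Spacers of 1 base occurred in 0.222% and spacers of 2 bases in 0.268% of windows, and no window of a member held either. The sequences run 5′ to 3′ on the strand of the gene up to the base before the start, with the hexamers in capitals.
*Rarb*, mm9 chr14:17407991-17408103, minus strand: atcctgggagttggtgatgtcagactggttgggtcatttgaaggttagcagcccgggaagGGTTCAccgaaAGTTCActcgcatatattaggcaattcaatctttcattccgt
*Cyp26a1*, mm9 chr19:37772206-37772297, plus strand: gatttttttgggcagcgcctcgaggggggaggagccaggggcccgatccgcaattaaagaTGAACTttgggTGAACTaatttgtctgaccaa
The repeat of *Rarb* lies 53 to 37 bases before the start. That of *Cyp26a1* lies 32 to 16 bases before it and reads on the opposite strand, so its hexamers appear as their reverse complements. A match describes the letters only. Of the 10 genes in the tables with such a repeat in a window, 9 were tested and 1, *Cyp26a1*, was called in Δ/Δ against fl/fl females, where 25.4% of all genes tested were called higher and 24.7% lower.

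Values are normalized counts, that is, the reads of a gene over the size factor of its library. A gene was called when its adjusted p was under 0.05 (limma on log2(normalized count + 1), Benjamini-Hochberg over all genes tested), and fold changes are on that scale, which understates the change of low genes. The recovered reads numbered 5516216 to 11092731 per library. *Kdm5c* itself (mm9 chromosome X, 148667563 to 148709078) had counts of 2336, 2429 and 2315 in fl/fl and 1406, 1447 and 1505 in Δ/Δ libraries A, B and C, a log2 fold change of −0.70 (SE 0.054, limma adjusted p = 4.53e-09). In males it had 2195, 2110 and 2371 in flY and 1897, 1943 and 1976 in ΔY, a log2 fold change of −0.20 (SE 0.11, limma adjusted p = 0.271) with groups that did not overlap. These are counts over the whole gene and do not check the deletion itself. flY library B and ΔY library A stood apart from the others of their genotype, with root mean square differences of 0.426 to 0.603 on the log2 scale against 0.183 to 0.208 for every other pair within a genotype. Reads on 1459 olfactory and vomeronasal receptor genes, which are silent in such cells, summed to 12120 and 13180 normalized counts in flY libraries A and C and to 1792 to 3548 in the other 10 libraries. Male results of the members are therefore given with and without the libraries that stood apart where that changes a call. Those of other genes are from all male libraries unless stated. Fits without flY library B have flY libraries A and C, with the high receptor sums, as their only male controls.

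The EpiLC label was compared with markers. *Fgf5*, *Otx2*, *Dnmt3b*, *Pou3f1*, *Dnmt3a* and *Sox3* together had 6010 to 15400 normalized counts per library. The sum of 12 markers of primitive and visceral endoderm (*Sox17*, *Gata4*, *Gata6*, *Sox7*, *Foxa2*, *Afp*, *Ttr*, *Apoa1*, *Cubn*, *Amn*, *Dab2* and *Hnf4a*) differed by more than that between genotypes. It was 554.5 to 617 in fl/fl, 6805 to 7020 in Δ/Δ and 2998 to 5517 in flY libraries, and 960.1, 6703 and 6824 in ΔY libraries A, B and C. All 12 rose in Δ/Δ females, beside 25.4% of all genes called higher and 24.7% lower. In ΔY males 0 rose and 1, *Sox17*, fell, beside 4.21% and 3.59% of all genes. The male calls depended on single libraries. With a library left out, the limma adjusted p went down to 0.00057 for *Apoa1*, 0.0012 for *Amn*, 0.0112 for *Hnf4a*, 0.025 for *Dab2* and 0.0281 for *Cubn*, as rises. It went down to 0.00484 for *Sox7* and 0.015 for *Gata6*, as falls, and up to 0.176 for *Sox17*. *Ttr* was at 0 in fl/fl libraries A and C. The sum of 6 fibroblast markers (*Col1a1*, *Col1a2*, *Col3a1*, *Thy1*, *Postn* and *Lum*) was 2244 to 2297 in fl/fl, 744.8 to 806.4 in Δ/Δ, 553.3 to 819.8 in flY and 4163 to 4663 in ΔY libraries. In females 3 of the 6 fell and 0 rose, and in males 4 rose and 0 fell, beside the same shares of all genes. *Thy1* and *Lum* were not called in either sex. *Lum* had 0 to 4 reads in every library, with 0 in fl/fl library A and ΔY library B. The male call of *Col3a1* was lost in some fits with a library left out (limma adjusted p up to 0.139). The part of endoderm and fibroblast cells in the results below was not tested, and in bulk RNA fewer cells of a type and less RNA per cell cannot be told apart.

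In females, 5 of the 9 genes changed. *Cyp26a1*, *Stra6*, *Rarg* and *Rara* rose and *Dhrs3* fell in Δ/Δ against fl/fl EpiLCs. Across all 19572 genes tested, 25.4% were called higher and 24.7% lower, so about as large a share of all genes was called as of the members. The libraries of the female genotypes did not overlap in the same 5 members, against 54.8% of all genes. The median log2 change of the 9 was 0.19, against 0.0037 for all genes. In males 1 of 9 changed, *Rara*, which rose, against 4.21% of 21872 genes called higher and 3.59% called lower. Male genotypes did not overlap for 3 members, *Stra6*, *Aldh1a2* and *Rara*, against 26.5% of all genes. The male median was −0.01, against −0.16 for all genes, a shift that comes to 0.0008 when genes whose mean is under 10 are left out.

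**Figure D1:**
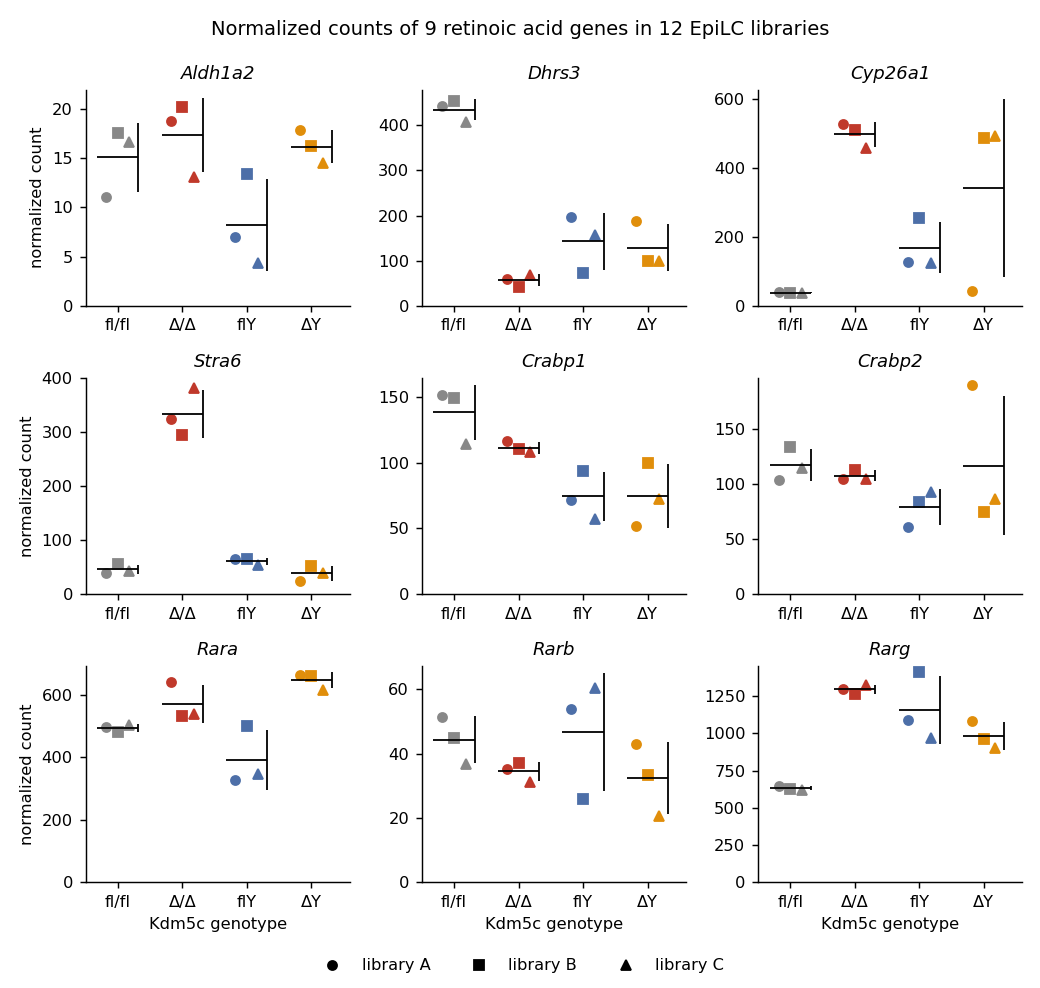
Normalized counts of the 9 genes, with 1 panel per gene. Points are single libraries (circle A, square B, triangle C), horizontal lines are means and vertical lines are SDs of 3 libraries. *Cyp26a1*, *Stra6* and *Rarg* sit higher, and *Dhrs3* lower, in all 3 Δ/Δ libraries than in all 3 fl/fl libraries, whereas library A of ΔY departs from B and C for *Cyp26a1*, *Crabp2* and *Dhrs3*.

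Of the enzymes among the members, *Cyp26a1*, for the removal of retinoic acid, changed most in females. The gene lies on the plus strand of mm9 chromosome 19 from 37772298 to 37776018. Its counts were 40.2, 37.3 and 35.6 in fl/fl and 525, 508.4 and 455.8 in Δ/Δ libraries A, B and C. The female groups lay far apart, and the spread within each was small. The log2 fold change was 3.68 (SE 0.11, 95% interval 3.45 to 3.91, limma adjusted p = 1.03e-14), a 12.8-fold rise (p = 0.1 in a two-sided exact permutation test of 3 against 3 libraries, which cannot give less).
In males, *Cyp26a1* had 126.6, 253.3 and 125 in flY and 42.2, 485.5 and 492.4 in ΔY libraries A, B and C. Libraries B and C of ΔY reached the level of Δ/Δ, while library A was as low as fl/fl. The log2 fold change over all male libraries was 0.45 (SE 0.80, 95% interval −1.34 to 2.23, limma adjusted p = 0.728). Without ΔY library A it was 1.62 (limma adjusted p = 0.00284), and without that library and flY library B 1.95 (limma adjusted p = 3.44e-05). Leaving out ΔY library B or C instead gave −0.13 and −0.14 (limma adjusted p = 0.941 and 0.935). The male change minus the female change was −3.24 (SE 0.94, limma adjusted p = 0.0247), and it was called in all fits that left out 1 library except those without fl/fl library B or C, Δ/Δ library A or B or flY library B, where it lay between −3.23 and −2.90 with limma adjusted p from 0.0520 to 0.0680. It was not called with limma voom, which weights each value by its precision (limma adjusted p = 0.0813). Without both libraries that stood apart it was −1.73 (limma adjusted p = 2.45e-06).
The libraries with a low *Cyp26a1* were also those with few endoderm counts. The 3 fl/fl libraries and ΔY library A, with 35.6 to 42.2 counts of *Cyp26a1*, had endoderm sums of 554.5 to 960.1, and the 5 libraries with 455.8 to 525 counts had sums of 6703 to 7020. The other *Cyp26* genes were near the limit of counting. *Cyp26b1* had means of 5.26 in fl/fl, 5.18 in Δ/Δ, 11 in flY and 21 in ΔY, those of *Cyp26c1* were 1.40 to 2.42, and neither was called in either sex.

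*Dhrs3*, for the return of retinal to retinol, went the other way in females. It lies on the plus strand of chromosome 4 from 144482730 to 144518112. The counts were 442.6, 453.5 and 408 in fl/fl and 59.6, 42.1 and 68.7 in Δ/Δ libraries A, B and C, so every mutant library was well below every control. On the log2 scale, the change was −2.94 (SE 0.14, 95% interval −3.23 to −2.65, limma adjusted p = 7.31e-12), with the mean of Δ/Δ at 0.131 of that of fl/fl.
In males, *Dhrs3* had 197.4, 73.4 and 156.7 in flY and 188.3, 99.3 and 98.3 in ΔY libraries A, B and C, and the groups overlapped. The log2 fold change was −0.10 (SE 0.38, 95% interval −0.94 to 0.74, limma adjusted p = 0.877), and −0.83 (limma adjusted p = 0.00541) without both libraries that stood apart. With 1 library left out it ranged from −0.52 to 0.19, and without flY libraries A and C it was 0.73. The male change minus the female change was 2.84 (SE 0.46, limma adjusted p = 0.000639), and it stayed called without each library in turn (2.42 to 3.13) and without both (2.12, limma adjusted p = 8.44e-05). *Dhrs3* was lowest, at 42.1 to 99.3 counts, in the 6 libraries with the highest endoderm sums (5517 to 7020).

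*Aldh1a2*, for the synthesis of retinoic acid, was low throughout. It lies on the plus strand of chromosome 9 from 71063596 to 71144050. The counts were 11.1, 17.6 and 16.7 in fl/fl and 18.8, 20.2 and 13.1 in Δ/Δ libraries, which overlapped (log2 fold change 0.19, SE 0.31, 95% interval −0.46 to 0.85, limma adjusted p = 0.625). They were 6.98, 13.4 and 4.31 in flY and 17.9, 16.2 and 14.5 in ΔY libraries, which did not overlap. The male log2 fold change of 1.01 (SE 0.50, 95% interval −0.11 to 2.13) had a limma adjusted p of 0.241. It was 1.33 (limma adjusted p = 0.0379) without both libraries that stood apart, a fit whose controls rest on 7 and 3 reads. The female and male intervals leave room for changes in either direction.

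*Stra6*, for the retinol transporter of the membrane, rose in females, and its change differed between the sexes. It lies on the plus strand of chromosome 9 from 57911595 to 58001803. Counts were 38.2, 54.9 and 43.4 in fl/fl and 324.4, 294.6 and 383 in Δ/Δ libraries A, B and C. The lowest mutant library had several times the count of the highest control. On the log2 scale, the change was 2.86 (SE 0.14, 95% interval 2.56 to 3.15, limma adjusted p = 1.13e-11), a 7.24-fold rise.
In males, *Stra6* had 64.8, 64.1 and 53.2 in flY and 24.3, 51.7 and 38.3 in ΔY libraries. All mutant libraries were below all controls, but the log2 fold change of −0.72 (SE 0.32, 95% interval −1.43 to 0.00) had a limma adjusted p of 0.205. The change in males minus that in females was −3.57 (SE 0.34, limma adjusted p = 1.16e-05), −3.82 to −3.29 without each library in turn and −3.25 without both libraries that stood apart, always called. ΔY libraries B and C, with endoderm sums of 6703 and 6824 near those of Δ/Δ, had 51.7 and 38.3 counts of *Stra6*, against 294.6 to 383 in Δ/Δ. The markers within these sums differed, and *Cubn* alone made up 3477 and 3663 of them. *Sox17* had 115.5 and 110.7 counts in ΔY libraries B and C against 479 to 507.8 in Δ/Δ. *Gata6* was lower too (211.8 and 204.8 against 555.8 to 658.2), whereas *Apoa1* was higher (461.2 and 447.9 against 37 to 40.8). The part of endoderm cells in the level of *Stra6* was not tested.

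**Figure D2:**
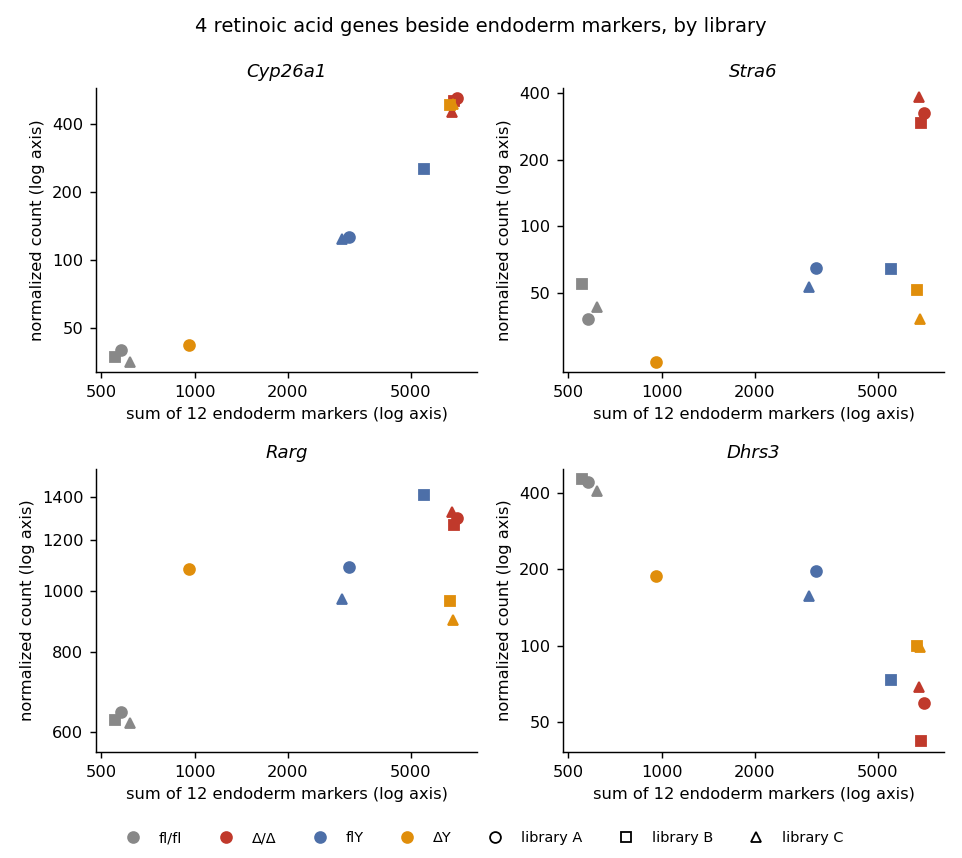
Normalized counts of *Cyp26a1*, *Stra6*, *Rarg* and *Dhrs3* (y axes, log scale) against the sum of 12 endoderm markers (x axes, log scale), with 1 point per library. *Cyp26a1* is lowest in the 4 libraries with sums of 554.5 to 960.1 and *Dhrs3* lowest in the 6 with sums of 5517 to 7020, whereas *Stra6* is high in the 3 Δ/Δ libraries alone. The libraries differ in much besides these markers, and the plot is a description.

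Neither of the genes for cytoplasmic binding proteins was called in either sex. *Crabp1* (chromosome 9, 54612555 to 54620917) had 151.9, 149.3 and 114.5 in fl/fl and 116.8, 110.3 and 108.1 in Δ/Δ libraries, which overlapped through fl/fl library C. The log2 fold change was −0.30 (SE 0.12, 95% interval −0.56 to −0.03, limma adjusted p = 0.0565), and the adjusted p of limma was 0.00889 without fl/fl library C and 0.0463 when genes with a mean under 10 were left out. In males, *Crabp1* had 71.8, 94.1 and 57.5 in flY and 51.9, 100.3 and 72.4 in ΔY (log2 fold change −0.01, 95% interval −0.68 to 0.65).
*Crabp2* (chromosome 3, 87752588 to 87757298) had 103.6, 132.9 and 114.5 in fl/fl and 104.2, 112.8 and 104.1 in Δ/Δ (log2 fold change −0.12, 95% interval −0.38 to 0.14, limma adjusted p = 0.462). The male counts were 60.8, 83.7 and 92 in flY and 189.1, 74 and 85.9 in ΔY (log2 fold change 0.45, 95% interval −0.33 to 1.22, limma adjusted p = 0.434). The high value is again that of ΔY library A, without which the log2 fold change was 0.04.

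Of the receptor genes, *Rarg* rose in females. It lies on the minus strand of chromosome 15 from 102065369 to 102087948. The counts were 644.8, 625.8 and 619.2 in fl/fl and 1298, 1265 and 1328 in Δ/Δ libraries, with no overlap. On the log2 scale, the change was 1.04 (SE 0.056, 95% interval 0.92 to 1.16, limma adjusted p = 4.32e-11), a 2.06-fold rise.
In males, *Rarg* had 1087, 1412 and 970.1 in flY and 1082, 961.9 and 899.9 in ΔY libraries (log2 fold change −0.22, SE 0.15, 95% interval −0.57 to 0.12, limma adjusted p = 0.376). Every male library was above every fl/fl library. The male change minus the female change was −1.26 (SE 0.17, limma adjusted p = 0.000143) and stayed called without each library in turn (−1.38 to −1.11).

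*Rara* was the one member called in both sexes. It lies on the plus strand of chromosome 11 from 98789132 to 98836256. The counts were 498, 479.8 and 502.5 in fl/fl and 642.6, 532 and 538.6 in Δ/Δ, which lay close together without overlap. The log2 fold change was 0.21 (SE 0.075, limma adjusted p = 0.0293). That call was lost without any of the 3 fl/fl libraries or without Δ/Δ library A (limma adjusted p from 0.0529 to 0.177) and in 1 fit over all 12 libraries (limma adjusted p = 0.315).
In males, *Rara* had 327, 500.4 and 346.4 in flY and 663.1, 660.9 and 616.5 in ΔY, and all mutant libraries were above all controls. On the log2 scale, the change was 0.75 (SE 0.17, 95% interval 0.38 to 1.12, limma adjusted p = 0.0279), a 1.68-fold rise. The call was lost without flY library A or C or ΔY library B or C (limma adjusted p from 0.0842 to 0.143) and was firmer without both libraries that stood apart (log2 fold change 0.92, limma adjusted p = 0.000271). The male change minus the female change, 0.54, had a limma adjusted p of 0.0596, and of 0.00133 without flY library B.

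*Rarb* (minus strand of chromosome 14, 17263356 to 17651381), whose promoter holds the same kind of repeat as that of *Cyp26a1*, had 51.3, 45 and 36.7 in fl/fl and 35.3, 37 and 31.3 in Δ/Δ libraries. The groups overlapped, and the log2 fold change of −0.34 (SE 0.21, 95% interval −0.78 to 0.10) had a limma adjusted p of 0.192. Male counts were 53.8, 25.8 and 60.4 in flY and 43, 33.4 and 20.7 in ΔY (log2 fold change −0.49, 95% interval −1.41 to 0.44, limma adjusted p = 0.482). Without both libraries that stood apart, the male change was −1.09 (limma adjusted p = 0.0222). The only controls in that fit are flY libraries A and C, those with many reads on silent receptor genes.

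**Figure D3:**
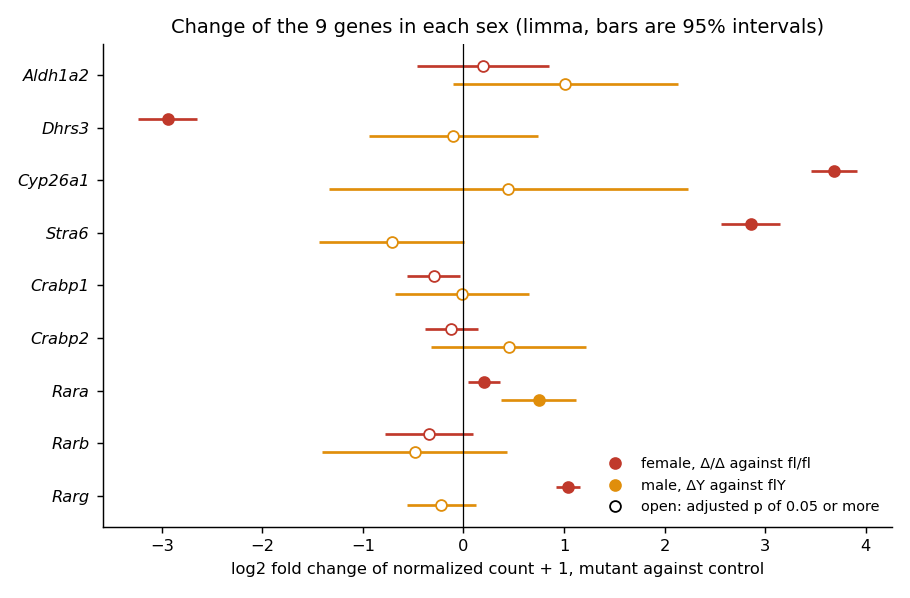
Log2 fold changes of the 9 genes in mutant against control EpiLCs of each sex, with 95% intervals from limma (x axis, log2 of normalized count + 1). Filled points have an adjusted p under 0.05, and the female and male intervals do not overlap for *Dhrs3*, *Cyp26a1*, *Stra6*, *Rara* and *Rarg*, of which all but *Rara* passed the test of the difference.

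The response to the mutation differed between the sexes for 4 of the 9 genes, *Stra6*, *Cyp26a1*, *Dhrs3* and *Rarg*, against 21.2% of 22014 genes. With limma voom, *Cyp26a1* was not among them. Without both libraries that stood apart, 5 male members were called (*Cyp26a1*, *Aldh1a2* and *Rara* higher, *Dhrs3* and *Rarb* lower) and the difference between the sexes passed for 6, the 4 above with *Crabp1* and *Rara*. The male controls of these fits are flY libraries A and C alone, those with many reads on silent receptor genes. In the same fits, 17.7% of all genes were called higher and 25.3% lower in males, and 45.6% differed between the sexes. With flY libraries A and C left out instead, 0 male members and 0 male genes were called by limma, with 2803 genes at an unadjusted p under 0.05. That fit keeps a single control library, which is assumed to vary like the others.

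The control cells of the sexes were compared as well. *Dhrs3* was 3.28-fold higher in fl/fl than in flY EpiLCs (log2 difference 1.72, SE 0.32, limma adjusted p = 0.00232), and *Crabp1* was higher by 0.90 on the log2 scale (SE 0.23, limma adjusted p = 0.0139). *Rarg* was lower by a log2 difference of −0.86 (SE 0.12, limma adjusted p = 0.000226) and *Cyp26a1* by −2.05 (SE 0.66, limma adjusted p = 0.0420). Thus 2 of 9 were higher and 2 lower, against 9.7% and 11.8% of all genes. *Dhrs3* and *Rarg* kept their calls without each library in turn. *Crabp1* lost its call without fl/fl library A or B or flY library C (limma adjusted p from 0.0594 to 0.0705). *Cyp26a1* lost it without any library of the 3 genotypes other than ΔY (limma adjusted p from 0.0575 to 0.122) and with limma voom (limma adjusted p = 0.202). Of the 12 endoderm markers, 9 were lower and 0 higher in fl/fl than in flY EpiLCs. These controls serve in both comparisons, so the difference between the sexes in a change is not independent of the difference between controls.

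Levels of different genes can be set side by side per kb of exon. In fl/fl, the order of normalized counts per kb was *Crabp1* (173 ± 26, SD, n = 3 libraries), *Rarg* (153 ± 3.23), *Dhrs3* (149 ± 8.11), *Rara* (108 ± 2.63), *Crabp2* (88.5 ± 11.2), *Cyp26a1* (21.3 ± 1.33), *Rarb* (13.5 ± 2.23), *Stra6* (7.8 ± 1.46) and *Aldh1a2* (6.67 ± 1.56). The first 3 did not differ beyond their SDs, nor did the last 2. In Δ/Δ, *Rarg* (316 ± 7.63 per kb) and *Cyp26a1* (280 ± 20.4 per kb) led and differed by more than their SDs. *Crabp1* (139 ± 5.61 per kb) and *Rara* (125 ± 13.6 per kb) followed and overlapped, and *Dhrs3* (19.4 ± 4.62 per kb) had moved from the third place to the seventh. In flY, *Rarg* (281 ± 55.8 per kb) led alone, and the 5 genes after it, from *Cyp26a1* (94.9 ± 41.5 per kb) to *Dhrs3* (48.7 ± 21.6 per kb), each overlapped with the next. In ΔY, the SD of *Cyp26a1* (192 ± 145 per kb) spanned the distance to *Rarg* (239 ± 22.5 per kb) above and *Rara* (141 ± 5.75 per kb) below. *Aldh1a2* and *Stra6* were at 3.64 to 10.4 per kb in both male genotypes.

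Around the 9 genes, 53 other genes of the pathway were counted. In females 10 rose and 10 fell of 51 that were tested, and the median log2 change was −0.09, against 0.0037 for all genes. In males 6 rose and 0 fell of 53, with a median of −0.03 against −0.16. Set beside 25.4% and 24.7% of all genes in females, the share of pathway genes called was no larger in either direction, whereas in males 6 of 53 stand beside 4.21%.
Of the genes for storage, transport and uptake, *Rbp4*, for the retinol carrier of the blood, rose in females (log2 fold change 1.52, SE 0.32, limma adjusted p = 0.000618, or 0.0563 in 1 fit over all 12 libraries).
Among 17 genes for the oxidation of retinol and retinal and for the reverse steps, 3 rose (*Rdh10*, *Dhrs4* and *Aldh1a3*) and 3 fell (*Rdh11*, *Rdh12* and *Rdh14*) in females, and 0 were called by limma in males, where 5 of the 17 had genotypes that did not overlap, beside 26.5% of all genes. With a male library left out, the limma adjusted p went down to 0.00711 for *Rdh1*, 0.0202 for *Rdh9* and 0.0329 for *Rdh11*, as falls. It went down to 0.0308 for *Dhrs4* and 0.0344 for *Dhrs9*, as rises. *Rdh1* and *Rdh9* share 464 bases of exon on the same strand, and *Dhrs9* had 3, 0 and 1 reads in flY libraries. Of the genes called in females whose mean over all female libraries reached 10, which leaves out *Aldh1a3*, *Dhrs4* rose most (log2 fold change 0.98, SE 0.11, limma adjusted p = 6.46e-07) and *Rdh14* fell most (−0.71, SE 0.16, limma adjusted p = 0.001). *Rdh10*, for the oxidation of retinol to retinal, rose by 0.31 (SE 0.11, limma adjusted p = 0.0260, up to 0.114 with a library left out and 0.174 in 1 fit over all 12 libraries). That fit also ended the calls of *Rdh11* and *Rdh12* (limma adjusted p = 0.189 and 0.0894). *Aldh1a3*, a relative of *Aldh1a2*, had 2.01, 6.59 and 1.11 counts in fl/fl and 24.3, 14.3 and 11.1 in Δ/Δ (95% interval of the log2 fold change 1.22 to 3.19, limma adjusted p = 0.000669). *Fabp5*, for a further protein that binds retinoic acid among other lipids, fell in females (log2 fold change −1.19, SE 0.076, limma adjusted p = 4.20e-10). In males it was also lower in all mutant than in all control libraries (log2 fold change −0.72, SE 0.21, limma adjusted p = 0.0666, down to 0.00088 with a library left out).

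The RXR partners of the receptors differed among themselves. *Rxra* had 207.2, 188.8 and 203.4 counts in fl/fl and 214.7, 203.7 and 208.2 in Δ/Δ (log2 fold change 0.06, 95% interval −0.12 to 0.25, limma adjusted p = 0.569). In males it rose from 132.6, 168.5 and 119.3 to 293, 381.1 and 347.5 in ΔY (log2 fold change 1.28, SE 0.18, limma adjusted p = 0.00387, at most 0.0346 without each library in turn). The difference between the sexes, 1.22, was called (limma adjusted p = 0.000551). *Rxrb* fell by 0.33 on the log2 scale in females (SE 0.058, limma adjusted p = 0.000125) and had a male log2 fold change of 0.05 (limma adjusted p = 0.801), and *Rxrg*, with means of 21.2 to 28.6, was not called in either sex. Of 6 co-regulators, *Ncoa3* (log2 fold change 0.96, SE 0.061, limma adjusted p = 3.46e-10) and *Nrip1* (0.34, SE 0.087, limma adjusted p = 0.0032, or 0.0665 in 1 fit over all 12 libraries) rose in females. *Nrip1* also rose in males (0.97, SE 0.17, limma adjusted p = 0.0108, up to 0.0526 with a library left out). The male change of *Ncoa3* was 0.66 (SE 0.21, limma adjusted p = 0.082, down to 0.00018 with a library left out), with genotypes that did not overlap.

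Of 13 further genes known to answer retinoic acid, 4 rose and 4 fell in females, beside 25.4% and 24.7% of all genes, and 3 rose and 0 fell in males, beside 4.21% and 3.59%. *Hoxb1* and *Hoxb4*, for hindbrain and trunk patterning, fell in females. *Hoxb1* had 30.2, 36.2 and 40 counts in fl/fl and 0, 2.52 and 1.01 in Δ/Δ (log2 fold change −4.24 with a pseudocount of 1 and −5.74 with 0.1, limma adjusted p = 2.1e-07 with the former). *Hoxb4* had 63.4, 56 and 58.9 against 13.3, 15.2 and 12.1 (log2 fold change −2.06, SE 0.23, limma adjusted p = 6.07e-07). *Hoxb4* shares 110 bases of exon with a microRNA gene, and the sources used here do not say whether reads were counted by strand.
In ΔY, library A again differed from B and C, with 30.8 counts of *Hoxb1* against 1.01 and 1.03. *Hoxb1* and *Cyp26a1* thus stood at opposite levels in these 3 libraries.
*Meis1*, for a partner of HOX proteins, rose in females. It went from 19.1, 13.2 and 18.9 to 72.1, 53.9 and 71.8 (log2 fold change 1.89, SE 0.23, limma adjusted p = 1.97e-06). *Meis1* shares 896 bases of exon with *Gm16140* on the opposite strand. *Meis2* fell in females (log2 fold change −1.26, SE 0.15, limma adjusted p = 1.24e-06).

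**Figure D4:**
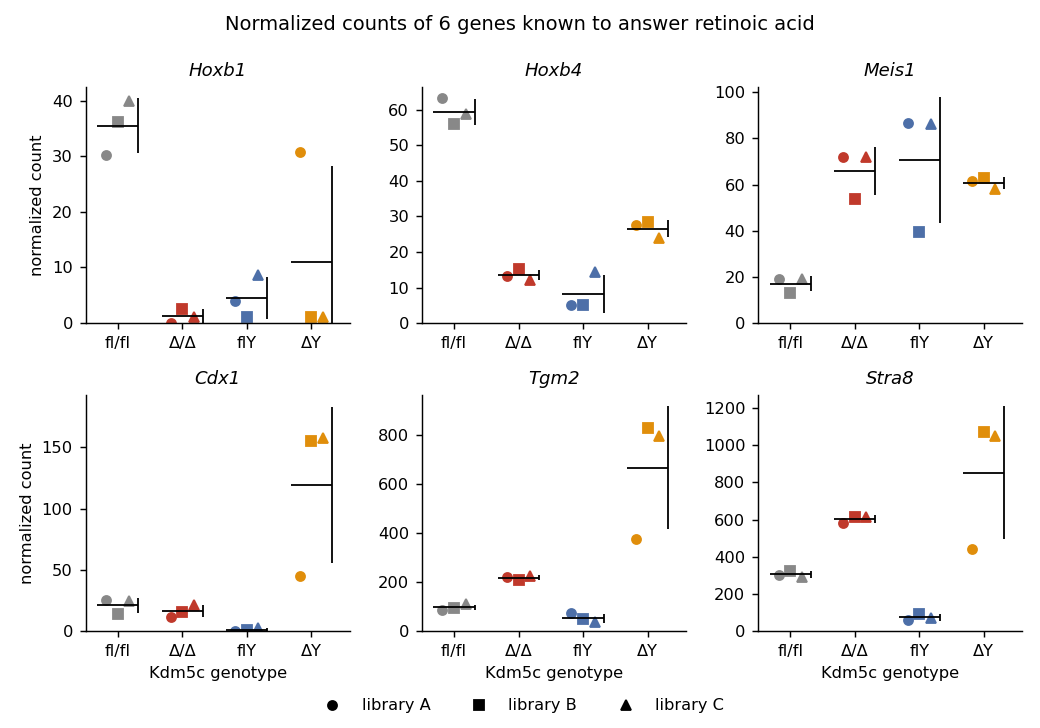
Normalized counts of 6 genes known to answer retinoic acid, drawn as for the 9 genes above, with SD lines that stop at 0. *Hoxb1* and *Hoxb4* are lower and *Meis1* higher in all Δ/Δ than in all fl/fl libraries, and *Cdx1*, *Tgm2* and *Stra8* are higher in all ΔY than in all flY libraries.

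The genes that rose in males were *Cdx1*, *Tgm2* and *Stra8*. *Cdx1*, for a trunk patterning factor, had 0, 1.03 and 2.87 counts in flY and 45.5, 155.1 and 157.2 in ΔY, so the controls rest on 0, 1 and 2 reads. Its log2 fold change of 5.72 (limma adjusted p = 0.00154) was 7.22 with a pseudocount of 0.1. *Tgm2*, for a transglutaminase, had 72.8, 51.7 and 35.9 against 376.6, 827.1 and 794.4 (log2 fold change 3.59, SE 0.33, limma adjusted p = 0.000613). Of the exon bases of *Tgm2*, 370 overlap the antisense gene *Rprd1b* and 633 the antisense gene *RP23-396G1.3*. *Stra8*, a gene of germ cells entering meiosis, had 61.8, 95.1 and 69 against 439.9, 1070 and 1047 (log2 fold change 3.40, SE 0.32, limma adjusted p = 0.000668). These 3 calls remained without each library in turn (limma adjusted p of at most 0.0152). *Tgm2* and *Stra8* rose in females too, by 1.17 (SE 0.11, limma adjusted p = 6.85e-08) and 0.97 (SE 0.070, limma adjusted p = 1.97e-09), and both rose more in males (differences of 2.42 each, limma adjusted p = 0.000646 and 0.000437). *Cdx1* had 25.2, 14.3 and 24.5 counts in fl/fl and 11.8, 16 and 21.2 in Δ/Δ (log2 fold change −0.36, 95% interval −1.03 to 0.31).

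The genes nearest in pattern over the 12 libraries were sought for the 4 members whose genotype means spanned at least 1 on the log2 scale. Likeness was the root mean square difference of centred log2 values, among 11995 genes that reached a mean of 50 in some genotype. *Cyp26a1* was nearest to *Clic6* (0.27), *Spink3* (0.275) and *Klb* (0.35). *Dhrs3* was nearest to *Wnt3* (0.294), *Gria3* (0.329) and *Olfm1* (0.353). *Wnt3*, for a signalling ligand, had means of 171.3 in fl/fl, 16.3 in Δ/Δ, 45.6 in flY and 42 in ΔY. *Rarg* had smaller distances, among them *Mrpl15* (0.125) and *Abcc4* (0.129). Its genotype means spanned 1.04 on the log2 scale, against 2.91 to 3.68 for the other members compared. The measure is not scaled to that span, so these distances do not show a closer likeness. *Stra6* had the most distant ones, *Nog* (0.457), *Erich5* (0.544) and *Trf* (0.601). *Nog*, for a BMP antagonist, had means of 35.6, 137.6, 44.2 and 29.5 in the same order of genotypes.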

How the data were processed

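The authors mapped single-end reads of 50 bases to mm9 with TopHat2 2.1.0, with up to 1 mismatch, and kept unique reads. The submitters' processing notes also name Bowtie2 2.2.6.0, DESeq and Cuffdiff. HTseq is named in the methods for the study's comparison of species. The study's software list names it for read counting without saying for which reads. The gene annotation and use of strand are not given in the sources used here. The authors deposited 1 table per sex with signal columns, the mean normalized count of each genotype. Their deposited comparison columns (fold changes and p-values) were not used, and the tables hold 0 columns of single samples.

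The reads of single libraries were solved from the means, since only certain whole numbers of reads over 3 size factors add up to a given mean. Genes whose mean lay at or below 10000 were solved, each with exactly 1 solution, and 22808 of 22911 genes were recovered in all 12 libraries, with 86.0% to 91.4% of normalized reads. Libraries were named by falling size factor. Depths cover counting error only. Both tables share 1 normalization. Library pairs within a genotype differed by more than sampling noise (chi-square per gene 2.15 to 35.6).

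Limma 3.58.1 (R 4.3.3, intensity trend) was fitted to log2(normalized count + 1) of genes with a read, within each sex and, for the difference between the sexes and between controls, over all 12 libraries. Both steps were tested on simulated data. Alternatives were a pseudocount of 0.1, limma voom, only genes whose mean reached 10, median-of-ratios factors, 1 fit for all libraries and leaving libraries out. Tools for raw counts were not used. Positions and exon lengths are from GENCODE M1 (mm9), promoters from RefSeq. Members, gene lists and markers were chosen with earlier results of these data known. Named genes are the 9 members, *Kdm5c*, the RXR genes, called pathway genes with examples by size of change (mean of at least 10; *Aldh1a3*, *Cyp26b1*, *Cyp26c1*, *Meis2* and *Rdh10* were added after their values were seen) and the 3 nearest genes in pattern. Some genes that this rule names are not reported here, although the counts over lists hold them. Python 3.11.15, numpy 2.4.6, pandas 2.3.3, numba 0.67.0 and matplotlib 3.10.9 were used.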

Additional observations from a re-analysis of the deposited data

Results flagged for a closer look

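For 4 genes the male change minus the female change passed the limma interaction test over 12 libraries. The difference was −3.57 on the log2 scale for *Stra6* (females 2.86, males −0.72), −3.24 for *Cyp26a1* (females 3.68, males 0.45), 2.84 for *Dhrs3* (females −2.94, males −0.10) and −1.26 for *Rarg* (females 1.04, males −0.22). No outlier test was run, because groups of 3 libraries are too small for it. The libraries that stood apart were picked by their distances within a genotype, after the data were seen. For *Cyp26a1*, the male value rests on *Kdm5c* ΔY library A (42.2 counts, against 485.5 and 492.4 in B and C), and without it and *Kdm5c* flY library B the difference was −1.73 (limma adjusted p = 2.45e-06).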

How the results depend on the processing

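No paired analysis was possible because the deposited columns carry no replicate numbers. The female calls of *Stra6*, *Cyp26a1*, *Dhrs3* and *Rarg*, and the difference between the sexes of *Stra6*, *Dhrs3* and *Rarg*, held under every alternative run. Genes called in females numbered 6493 in 1 fit over all 12 libraries, against 9799, and 8811 to 9138 with a library left out. Genes called in males numbered 4766 in that fit, against 1705, and 333 to 4691 with a library left out (333 without *Kdm5c* flY library C, 413 without A and 4691 without B, and 4310, 595 and 527 without *Kdm5c* ΔY libraries A, B and C). Without *Kdm5c* flY library B and *Kdm5c* ΔY library A, alternatives chosen after seeing the data like the next, they numbered 9352, and without *Kdm5c* flY libraries A and C 0 (2803 at an unadjusted p under 0.05). Male members called ranged from 0 to 2 with a library left out and numbered 5 and 0 in these last fits. Other pathway genes called in males, 6 of 53, numbered 11 in 1 fit over all libraries, 5 to 11 with a library left out, and 25 and 0 in the last fits. Genes differing between controls, 4741, numbered 2894 to 8318 with a library left out, and 10724 and 2040, and members 2 to 6, and 7 and 2. Genes differing between the sexes, 4675, numbered 3554 to 7334 with a library left out and 10014 without both libraries that stood apart. The cause of these differences was not tested.

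Reversals concerned changes that were not called. With a library left out, the lowest and highest log2 values were −0.0007 to 0.37 for *Aldh1a2* in females, and in males −0.14 to 1.62 for *Cyp26a1*, −0.25 to 0.22 for *Crabp1* and −0.52 to 0.19 for *Dhrs3*. For *Rarb* they were −0.37 to 0.23 between controls and −0.52 to 0.14 between the sexes. Without *Kdm5c* flY library B and *Kdm5c* ΔY library A, *Crabp1* changed by 0.40 in males and *Rarb* differed by −0.37 between controls. Without *Kdm5c* flY libraries A and C, the male changes were −0.22 for *Cyp26a1*, 0.73 for *Dhrs3* and 0.26 for *Rarb*, *Rara* differed by −0.020 between controls, and the differences between the sexes were −0.078 for *Crabp1* and 0.60 for *Rarb*. Median-of-ratios factors gave −0.0029 for *Rarb* between controls. With limma voom, *Cyp26a1* lost its call between controls (limma adjusted p = 0.202) and between the sexes (limma adjusted p = 0.0813). Depth limits *Aldh1a2*, *Aldh1a3*, *Cyp26b1*, *Cyp26c1*, *Dhrs9*, *Neurog2* and *Lum*, which rest on few reads.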

Other observations

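Calls in the remaining marker lists stand beside 25.4% of all genes called higher and 24.7% lower in females. In males these shares were 4.21% and 3.59%. Some of the male calls below depended on single libraries. With a library left out, the limma adjusted p went up to 0.13 for *Fgf5*, 0.137 for *Pou3f1* and 0.109 for *Zfp42*. It went up to 0.107 for *Esrrb* and 0.0602 for *Dazl*, whereas *Otx2*, *Tbx3*, *Stra8* and *Sycp3* kept their male calls (at most 0.031). Of 6 naive pluripotency markers, 5 rose in females (*Zfp42*, *Klf4*, *Esrrb*, *Tbx3* and *Nr0b1*) and 3 in males (*Zfp42*, *Esrrb* and *Tbx3*), with sums of 642.3 to 653.7 in *Kdm5c* fl/fl, 2131 to 2261 in *Kdm5c* Δ/Δ, 919.8 to 1970 in *Kdm5c* flY and 2976 to 4488 in *Kdm5c* ΔY libraries. Of 6 EpiLC markers, 3 rose (*Otx2*, *Dnmt3b* and *Dnmt3a*) and 2 fell (*Pou3f1* and *Sox3*) in females, and 3 fell in males (*Fgf5*, *Otx2* and *Pou3f1*). Of the general pluripotency genes, *Sox2* rose and *Pou5f1* fell in females, and neither was called in males. Of 4 germline markers, *Dazl*, *Ddx4* and *Stra8* rose and *Sycp3* fell in females, and *Dazl* and *Stra8* rose and *Sycp3* fell in males. *Stra8* is also among the genes known to answer retinoic acid. Mesendoderm markers numbered 2 higher (*Mixl1* and *Gsc*) and 1 lower (*T*) of 5 in females, and 0 called by limma in males. Of 4 neural markers, *Neurog2* rose and *Sox1* fell in females, and 0 were called by limma in males, with sums of 340 in *Kdm5c* ΔY library A against 42.6 and 62.1 in B and C. *Neurog2* had 0 reads in each *Kdm5c* fl/fl library and 2, 2 and 3 in *Kdm5c* Δ/Δ. With a male library left out, some markers not called above had a limma adjusted p under 0.05. As rises, it went down to 0.00204 for *Klf4*, 0.0123 for *Ddx4*, 0.0197 for *Sox2*, 0.0225 for *Nr0b1* and 0.0272 for *Prdm14*. Others were 0.0376 for *Mixl1*, 0.0387 for *Gsc* and 0.0402 for *Eomes*. As falls, it was 0.00234 for *Sox3*, 0.00534 for *Sox1*, 0.0344 for *Dnmt3b* and 0.0457 for *T*.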
